A study of Mus musculus with 40 samples.

Results

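A set of 10 genes that mark microglia was followed through 40 bulk RNA-seq libraries of mouse midbrain and spinal cord. The 10 genes, taken as a named list out of the 40213 gene symbols in the count table, were Cx3cr1, P2ry12, Tmem119 and Csf1r, grouped here as homeostatic, and Aif1, Itgam, Trem2, Tyrobp, C1qa and C1qb, grouped as activation-linked. The second name is loose, since Itgam, Tyrobp and the C1q genes are also transcribed by resting microglia. All 10 had counts in every group and passed the filter on low counts in both tissues.

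The animals were male C57BL/6N mice, 8 weeks old, in 5 groups per tissue with 4 libraries each. Con received saline in place of both MPTP and the acupoint treatment. MPTP-Veh received MPTP, a toxin that kills dopaminergic neurons, at 20 mg/kg by 4 intraperitoneal injections 2 h apart, with saline injected at the acupoint GB34. MPTP-SU received the same MPTP and then SUEHP, an extract of several herbs used in pharmacopuncture, injected at GB34 on 4 occasions. MPTP-SU+S additionally received 3 mg/kg of a CB1 receptor antagonist, spelled SR141714A in the labels, and MPTP-SU+T received 5 mg/kg of the PPARγ inhibitor T0070907. The study's methods describe no perfusion of the tissue used for sequencing. RNA came from whole tissue, in which fewer microglia and less RNA per microglial cell cannot be told apart. The labels did not state that replicates were separate animals, so the p-values measure the spread between these libraries.

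Microglia are the resident macrophages of the brain and spinal cord. They survive on signalling through Csf1r, are held in a resting state in part by neuronal fractalkine acting on Cx3cr1, and sense ATP and ADP through P2ry12. When they respond to injury they typically lower P2ry12, Cx3cr1 and Tmem119 and raise phagocytic and complement genes through the receptor Trem2 and its signalling adaptor Tyrobp. Loss of nigral dopaminergic neurons after MPTP is a setting in which such a response is well known. The comparisons ask whether these genes differ after MPTP, after SUEHP, and when CB1 or PPARγ is blocked during SUEHP treatment.

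Library totals ran from 11958200 to 16639823 estimated counts in midbrain and from 14642808 to 16615378 in spinal cord. The 10 genes together took 2159 to 4535 counts of a library, or 0.0147% to 0.0379%. All 8 dopaminergic genes were lower and all 8 Hox genes higher in Con spinal cord than in Con midbrain. The Hox genes summed to 547 to 652 CPM in the spinal cord libraries and to at most 0.368 CPM in midbrain, except in MPTP-Veh replicate 4, where they summed to 1.4 CPM with 4 of the 8 above every other midbrain library. Levels are given as CPM (counts scaled to a common library size) after scaling for composition, and a gene is called changed when edgeR's quasi-likelihood test gave a Benjamini-Hochberg adjusted p below 0.05 over all genes tested together with a fold above 1.5.

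One library stood apart before any comparison was made. Midbrain MPTP-Veh replicate 4 had 1.35% of its counts on mitochondrially encoded genes, against 9.92% to 17.5% in the other 19 midbrain libraries, and 70.6% of the tested genes lay outside the range of those 19. Its correlation with the other libraries was 0.888, against 0.987 to 0.995 among the rest, and its deviation followed the GC content of transcripts (r = 0.599 across genes, against -0.444 to 0.236 in the other libraries). Midbrain calls that involve MPTP-Veh are therefore given with and without this library.

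**Figure D1:**
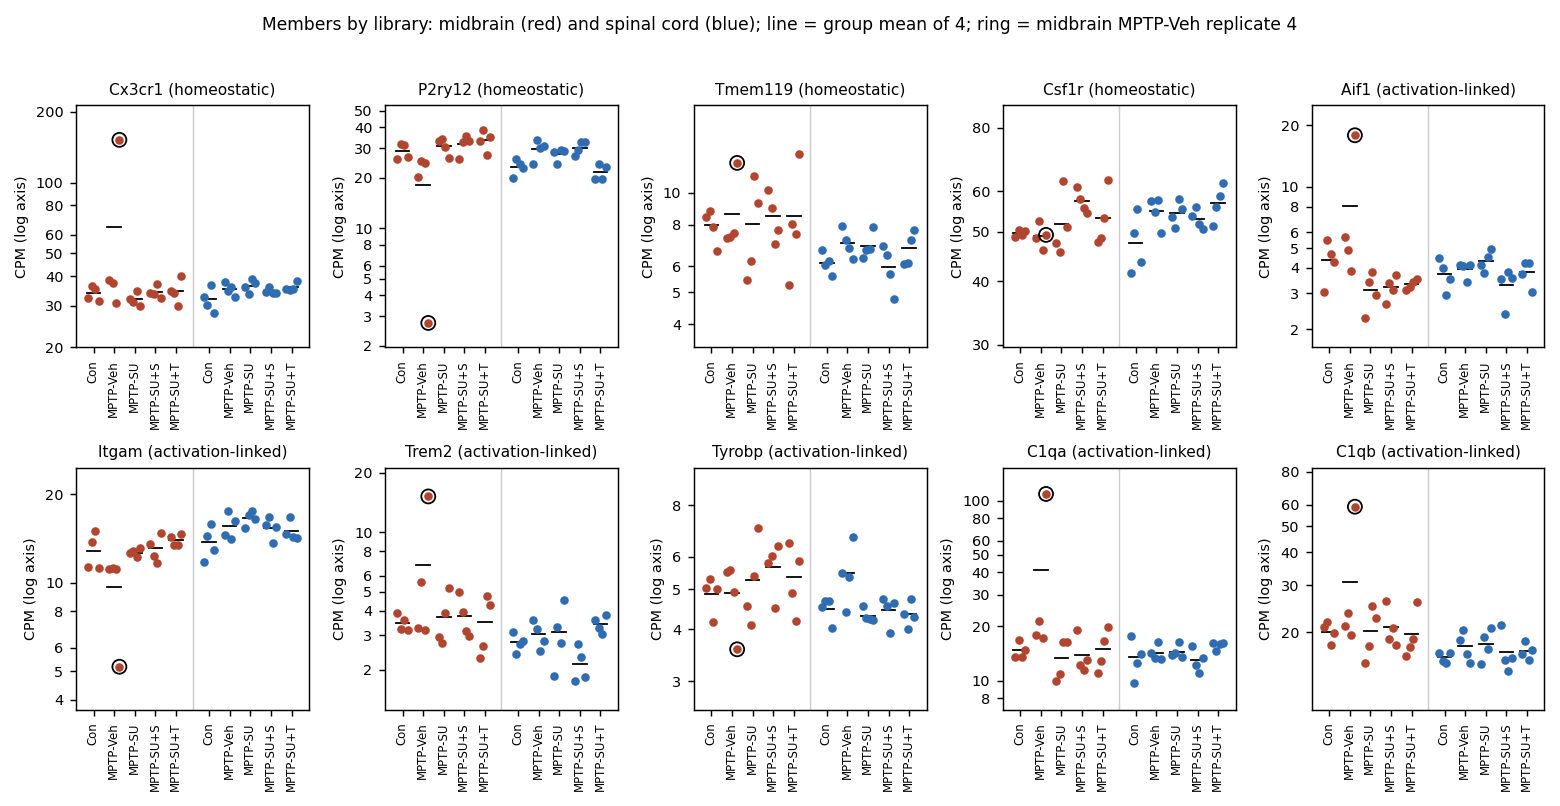
CPM of each of the 10 microglial genes (vertical log axis) in every library, grouped by treatment, with midbrain in red, spinal cord in blue, a line at each group mean of 4 libraries and a ring around midbrain MPTP-Veh replicate 4. In that library Cx3cr1 stood at 152 CPM and P2ry12 at 2.73 CPM, while the spinal cord groups overlapped for nearly every gene.

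Per kilobase of transcript, which allows levels to be compared between genes, the complement genes C1qb and C1qa led in both tissues, and Itgam came last in midbrain and Trem2 last in spinal cord. In Con midbrain C1qb stood at 18.5 CPM per kb, followed by C1qa at 14.1, P2ry12 at 12.4, Csf1r at 10.6, Tyrobp at 8.18 and Cx3cr1 at 7.53. Aif1 at 5.00, Tmem119 at 3.55, Trem2 at 3.19 and Itgam at 2.74 CPM per kb closed the order, and neighbours among these 4 overlapped, as did C1qa with P2ry12 and Tyrobp with Cx3cr1. Con spinal cord gave nearly the same order, from C1qb at 14.8 and C1qa at 13 to Csf1r at 10.1, P2ry12 at 9.90, Tyrobp at 7.50 and Cx3cr1 at 7.10, with Itgam at 2.93, Tmem119 at 2.74 and Trem2 at 2.55 CPM per kb at the bottom. These levels used the longest annotated coding transcript of each gene and would shift with another choice of transcript.

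Of the homeostatic receptors, Cx3cr1 was high in 1 midbrain library and P2ry12 was low in the whole MPTP-Veh group. Cx3cr1, the fractalkine receptor, measured 32.2, 36.4, 35.3 and 31.5 CPM in Con, 38.6, 37.6, 30.8 and 152 CPM in MPTP-Veh, and 31.9, 31.0, 34.8 and 29.8 CPM in MPTP-SU. The first 3 MPTP-Veh libraries overlapped with Con, and the fourth was 4.47 times the median of the other 19. P2ry12, the ADP receptor of resting microglia, measured 26.0, 31.8, 31.5 and 26.6 CPM in Con, 20.2, 25.3, 24.6 and 2.73 CPM in MPTP-Veh, and 33.2, 34.1, 30.4 and 26.4 CPM in MPTP-SU. All 4 MPTP-Veh libraries lay below every Con and every MPTP-SU library, the fourth far below the other 3.

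The remaining homeostatic genes moved less. Tmem119, a membrane protein of microglia with little expression in other brain macrophages, measured 8.47, 8.83, 7.90 and 6.67 CPM in Con and 7.31, 7.33, 7.53 and 12.3 CPM in MPTP-Veh. Its MPTP-SU libraries at 5.43, 6.21, 11.2 and 9.32 CPM overlapped with both groups. Csf1r, the receptor for colony stimulating factor 1 and interleukin 34, measured 48.8, 50.4, 49.3 and 50.1 CPM in Con and 48.7, 52.5, 46.0 and 49.3 CPM in MPTP-Veh, so that the library that stood apart did not do so for this gene.

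Among the activation-linked genes, complement C1qa showed the widest gap. C1qa, the A chain of the first complement component, measured 13.6, 16.8, 13.6 and 14.8 CPM in Con, 18, 21.4, 17.2 and 109 CPM in MPTP-Veh, and 9.99, 10.9, 16.4 and 16.4 CPM in MPTP-SU. All 4 MPTP-Veh libraries were above every Con and every MPTP-SU library. C1qb, the B chain, measured 21.0, 21.8, 17.9 and 19.9 CPM in Con, 21.2, 23.7, 19.6 and 59.1 CPM in MPTP-Veh and 15.4, 17.8, 25.1 and 22.7 CPM in MPTP-SU, and without the fourth MPTP-Veh library these ranges overlapped.

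Aif1, which encodes the widely used microglial antigen Iba1, measured 3.06, 5.49, 4.68 and 4.28 CPM in Con, 5.68, 4.91, 3.86 and 17.9 CPM in MPTP-Veh, and 2.28, 3.41, 3.83 and 2.93 CPM in MPTP-SU. Each MPTP-Veh library was above each MPTP-SU library, by a narrow margin between 3.86 and 3.83 CPM, and the first 3 overlapped with Con. Itgam, the CD11b chain of complement receptor 3, measured 11.3, 13.8, 15 and 11.2 CPM in Con, 11.1, 11.2, 11.1 and 5.18 CPM in MPTP-Veh and 12.6, 12.8, 12.2 and 13.1 CPM in MPTP-SU. The MPTP-Veh libraries were the lowest, though by a narrow margin in the first 3. Of these, 2 were at 11.1 CPM against 11.2 CPM in the lowest Con library, and MPTP-Veh replicate 2 equalled it after rounding.

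The receptor and its adaptor parted in the library that stood apart. Trem2, a lipid-sensing receptor, measured 3.88, 3.22, 3.60 and 3.18 CPM in Con and 3.27, 5.56, 3.19 and 15.2 CPM in MPTP-Veh, with 2.95, 2.73, 3.89 and 5.21 CPM in MPTP-SU. Tyrobp, which passes its signal on, measured 5.03, 5.31, 4.17 and 5.02 CPM in Con and 5.52, 5.56, 4.94 and 3.58 CPM in MPTP-Veh, with 4.56, 4.10, 5.40 and 7.04 CPM in MPTP-SU. Trem2 was highest and Tyrobp lowest of all midbrain libraries in MPTP-Veh replicate 4, and the groups otherwise overlapped for both.

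Within MPTP-Veh replicate 4, genes of the same cell type and even of the same protein complex moved apart. Of the 10 genes, 8 lay outside the range of the other 19 midbrain libraries, all but Tmem119 and Csf1r, a share near the 70.6% of all genes, and 5 of these 8 were high and 3 low. The C1q complex contains A, B and C chains, and the ratio of C1qa to C1qc was 3.96 in this library against 0.618 to 1.16 in the other midbrain libraries, while that of C1qa to C1qb was 1.85 against 0.549 to 0.903. The ratio of Trem2 to Tyrobp was 4.26 against 0.356 to 1.14, and that of P2ry12 to Cx3cr1 was 0.0179 against 0.522 to 1.13. No other library of either tissue reached any of these 4 ratios. Itgam was at 1.28 times its partner chain Itgb2, against 2.33 to 3.92 times elsewhere in midbrain.

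Genes of low GC content were mostly low and genes of high GC content mostly high in that library, and the 10 genes followed this in part. P2ry12, with 38.6% GC, was 3.38 log2 units below the median of the other libraries, where genes of at most 40% GC had a median of -1.37, with the 5th and 95th percentiles at -3.12 and 0.34. C1qa, C1qb, Trem2 and Tmem119 fell between 55% and 60% GC, a bin with a median of 0.89 and the same percentiles at -0.64 and 2.31, and they stood at 2.89, 1.54, 2.05 and 0.63. Cx3cr1 at 2.16, Aif1 at 2.27, Csf1r at -0.08 and Tyrobp at -0.54 belonged to the bin from 50% to 55%, whose median was 0.28 and whose percentiles were at -1.32 and 1.79, so that Cx3cr1 and Aif1 lay above the 95th percentile while Csf1r and Tyrobp lay below the median. C1qa also lay above the 95th percentile of its bin, and P2ry12 lay below the 5th percentile of its own. Itgam at -1.28 fell between 45% and 50% GC, where the median was -0.41 and the percentiles were at -1.93 and 1.21. The part of base composition in the members' values was not tested.

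Markers of other cell types were split within their own lists in that library. Of 10 astrocyte genes 5 lay above every other midbrain library, Gfap among them at 970 CPM, and 5 below, Slc1a2, Slc1a3 and Aqp4 among them, and of 10 endothelial genes 4 lay above, Cldn5 among them at 104 CPM, and 3 below, Cdh5 among them. Of 10 neuronal genes 5 lay above and 4 below, Snap25 among the latter. The 5 red blood cell genes summed to 2530 CPM against 213 to 402 CPM, with Hba-a1, Hba-a2 and Alas2 above and Hbb-bt below the other libraries. The 12 border macrophage markers summed to 30.0 CPM against 11.4 to 26.9 CPM, with 3 above, including Stab1, and 2 below, Cd163 and F13a1. Among 19 other homeostatic microglial genes 8 lay above, Siglech at 34.5 CPM against 9.46 to 15.1 CPM, and 9 below. Over all tested genes 34.1% lay above and 36.4% below, and the part of other cell types in the values of the 10 genes was not tested.

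**Figure D2:**
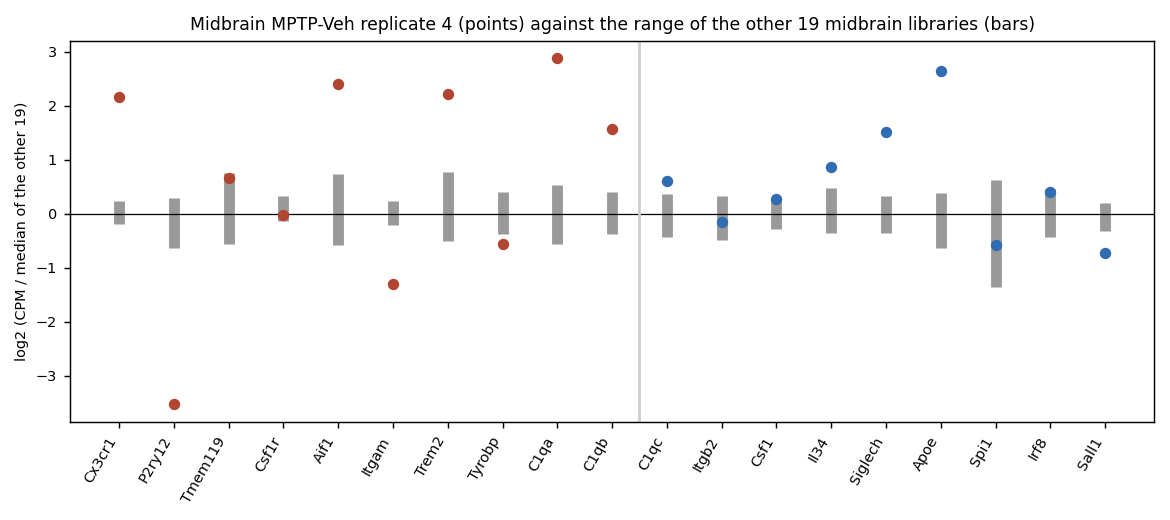
Level of each gene in midbrain MPTP-Veh replicate 4 as log2 of its CPM over the median of the other 19 midbrain libraries (vertical axis), with grey bars for the range of those 19, the 10 microglial genes in red and 9 related genes in blue. Cx3cr1, Aif1, Trem2, C1qa and C1qb lay above the bars, P2ry12, Itgam and Tyrobp below, and Tmem119 and Csf1r within them.

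The promoters of P2ry12 and C1qb are shown because these genes moved in opposite directions in that library while both carry the same short motif. GGAAGT is a core string of sites for ETS factors such as PU.1, the lineage factor of microglia encoded by Spi1. The 250 bases before the RefSeq start are printed 5′ to 3′ on the gene's strand from GRCm38.p6, with the motif in capitals as GGAAGT or as its reverse complement ACTTCC. P2ry12 is taken from chr3:59262986-59263235 (minus strand) and C1qb from chr4:136886201-136886450 (minus strand).
P2ry12: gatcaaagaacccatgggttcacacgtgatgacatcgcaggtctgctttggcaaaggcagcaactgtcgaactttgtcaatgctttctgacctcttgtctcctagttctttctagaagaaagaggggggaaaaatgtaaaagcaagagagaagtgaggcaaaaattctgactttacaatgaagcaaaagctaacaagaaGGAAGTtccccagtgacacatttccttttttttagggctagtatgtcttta
C1qb: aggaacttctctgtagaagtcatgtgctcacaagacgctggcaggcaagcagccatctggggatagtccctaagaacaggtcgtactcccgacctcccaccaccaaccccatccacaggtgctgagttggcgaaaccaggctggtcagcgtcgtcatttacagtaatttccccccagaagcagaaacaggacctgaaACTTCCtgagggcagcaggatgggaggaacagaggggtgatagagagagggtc
The motif began 51 bases before the start in P2ry12 and 53 bases before it in C1qb, counted from the RefSeq start used here, and the distance would change with another annotated start. It was found in 2 of the 6 listed genes that had a promoter entry, and in 19.7% of all 32851 promoters of the same length searched on both strands. Cx3cr1, Itgam, Aif1 and Trem2 held no match in this window.

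MPTP against saline in midbrain gave no called change among the 10 genes. None passed with edgeR, where 0.018% of all 16629 tested genes were called, and DESeq2 and limma-voom also called 0, while 6 had an unadjusted p below 0.05 against 23.7% of all genes. The group means were higher for 7 and lower for 3, with a median log2 fold change of 0.36 (0.05 for the homeostatic and 0.74 for the activation-linked genes, 0 for all genes). C1qa had the largest difference, 1.49 ± 0.45 (SE, edgeR adjusted p = 0.13), followed by Trem2 at 0.95 ± 0.40 (adjusted p = 0.169), Cx3cr1 at 0.93 ± 0.34 (adjusted p = 0.14), Aif1 at 0.87 ± 0.35 (adjusted p = 0.162) and C1qb at 0.61 ± 0.28 (adjusted p = 0.195). P2ry12 at -0.66 ± 0.35 (adjusted p = 0.255) and Itgam at -0.40 ± 0.18 (adjusted p = 0.186) went the other way.

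Most of these differences shrank when MPTP-Veh replicate 4 was left out. C1qa was then at 0.36 ± 0.21 (adjusted p = 0.518), Cx3cr1 at 0.07, Aif1 at 0.13, Trem2 at 0.21 and C1qb at 0.09, and P2ry12 was at -0.31 ± 0.13 (adjusted p = 0.354). In the group of all 4 MPTP-Veh libraries, 3 of the 10 genes did not overlap with Con, C1qa above it and P2ry12 and Itgam below it, where 12.4% of all genes did not overlap.

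SUEHP after MPTP gave the only called changes among the 10 genes in a comparison of 2 groups within a tissue with edgeR, and all were lower in MPTP-SU. C1qa fell by 1.62 ± 0.45 on the log2 scale (SE, edgeR adjusted p = 0.0242), Aif1 fell by 1.35 ± 0.36 (adjusted p = 0.0199) and Cx3cr1 fell by 1.02 ± 0.34 (adjusted p = 0.0446). These 3 of 10 compare with 13.5% of all genes called in either direction and 9.1% called lower, and 7 of the 10 had an unadjusted p below 0.05 against 39.8% of all genes. Trem2 at -0.86 ± 0.40 (adjusted p = 0.115) and C1qb at -0.60 ± 0.28 (adjusted p = 0.114) did not pass, nor did P2ry12 at 0.76 ± 0.36 (adjusted p = 0.119) and Itgam at 0.39 ± 0.18 (adjusted p = 0.115). Tmem119 at -0.09, Csf1r at 0.08 and Tyrobp at 0.10 were near 0. DESeq2 called 2 of the 3, Aif1 and Cx3cr1, limma-voom called C1qa alone, and 0 were called when only the libraries of the compared groups were fitted. With replicate number as a block edgeR called 2 of the 10, and Cx3cr1, whose value is given in the last section, was not among them. The shares of all genes called with DESeq2, limma-voom, the compared groups only or the block are not given here.

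None of the 3 was called without MPTP-Veh replicate 4, where 3.4% of all genes were. Aif1 was then at -0.62 ± 0.21 (edgeR adjusted p = 0.0524), C1qa at -0.49 ± 0.21 (adjusted p = 0.127) and Cx3cr1 at -0.16 (adjusted p = 0.307). P2ry12 alone had an adjusted p below 0.05 in that setting, higher in MPTP-SU by 0.41 ± 0.13 (adjusted p = 0.0447), with a fold under 1.5. The 3 calls were likewise lost when MPTP-SU replicate 1 or replicate 2 was left out, and 5 of the 10 genes were called without MPTP-Veh replicate 3. The number of all genes called also changed with the library left out, as given in the last section. The share of all genes called without MPTP-SU replicate 1, MPTP-SU replicate 2 or MPTP-Veh replicate 3 is not given here. These counts are therefore not read as a result about the 10 genes. The deviation of MPTP-SU replicates 1 and 2 followed GC content at r = -0.431 and -0.401 across genes, against 0.0557 and 0.128 in replicates 3 and 4, and the lower C1qa values of that group, 9.99 and 10.9 CPM, were those of replicates 1 and 2. The part of this in the differences was not tested. Removing the trend in GC content and length was among the processing alternatives, and its values for this comparison are not given here. Non-overlap between MPTP-SU and MPTP-Veh was found for 4 of the 10 genes, Aif1 and C1qa lower and P2ry12 and Itgam higher, against 21.9% of all genes. MPTP-Veh is the reference here and the treated group in the contrast with Con, so the opposite signs of the 2 contrasts share those libraries.

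**Figure D3:**
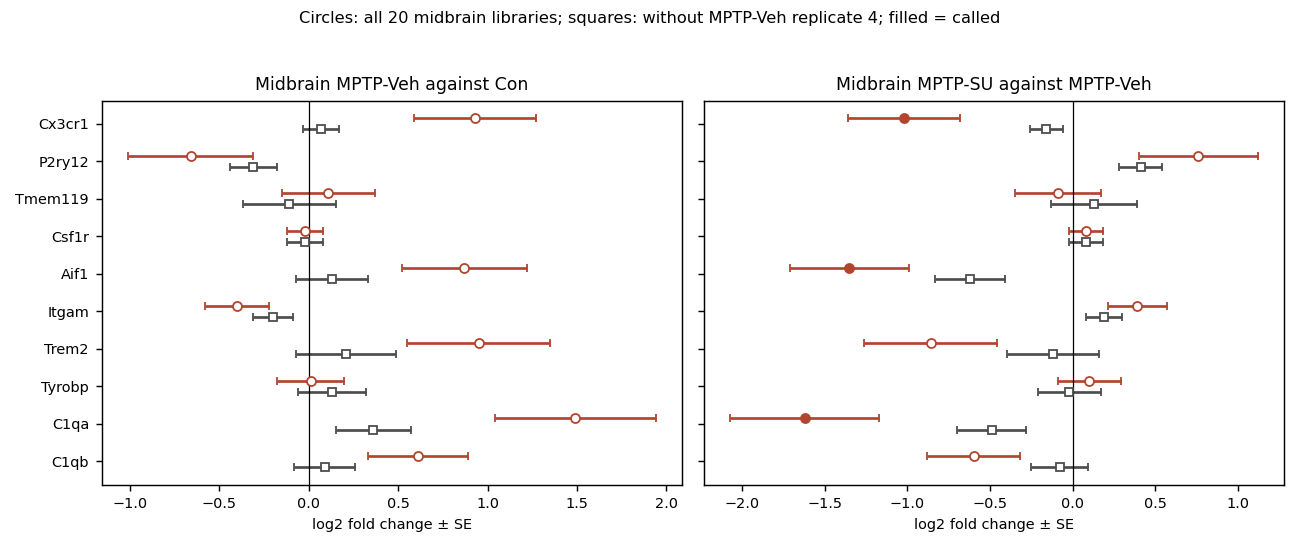
log2 fold change ± SE (horizontal axis) of the 10 microglial genes in midbrain for MPTP-Veh against Con and for MPTP-SU against MPTP-Veh, with circles for all 20 libraries, squares without MPTP-Veh replicate 4 and filled symbols for called genes. C1qa went from 1.49 to 0.36 and from -1.62 to -0.49 when that library was left out, and no square is filled.

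Genes that work with the 10 were examined as a list of ligands, partner chains, complement components and inhibitory pairs. In midbrain 2 of 19 tested partners were called in MPTP-SU against MPTP-Veh, a share below the 13.5% of all genes. Both were lower, namely Apoe, a lipid carrier that Trem2 binds, at -1.66 ± 0.39 (edgeR adjusted p = 0.0138) and complement C3 at -1.74 ± 0.52 (adjusted p = 0.03). Apoe remained called without MPTP-Veh replicate 4, at -0.67 (adjusted p = 0.0043), and C3 did not. Cx3cl1, the fractalkine that binds Cx3cr1, was higher in MPTP-SU by 0.50 (adjusted p = 0.0483), short of the fold of 1.5, and by 0.43 (adjusted p = 0.109) without that library. Of 19 other homeostatic microglial genes 3 fell, Siglech by 0.74, Cst3 by 0.80 and Adgrg1 by 0.61 on the log2 scale, a share near that of all genes, and none was called without that library.

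The remaining microglial lists are set against the 13.5% of all genes called in that comparison, or 3.4% without MPTP-Veh replicate 4. Among 18 tested disease-associated microglial genes 1 was called, again Apoe, and of 9 transcription factors and 10 inflammatory mediators 0 were called with edgeR. All 10 mediators had higher means in MPTP-SU, with MPTP-Veh replicate 4 included. In that library Il1a, Il18, Cd86 and Casp1 lay below every other midbrain library, and Il1b and Nos2 above. Without it the median of the tested mediators was 0.21 on the log2 scale, against 0.02 for all genes. The interferon list had 1 called gene of 11, Oasl2 at -0.61 (adjusted p = 0.0149), and the border macrophage list 1 of 7, Cbr2 at -1.99 (adjusted p = 0.0104). Without MPTP-Veh replicate 4 Apoe and Cbr2 were still called, and 0 genes of the interferon, transcription factor and inflammatory lists were.

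Adding the CB1 antagonist or the PPARγ inhibitor to SUEHP left the 10 genes without a called change in midbrain. In MPTP-SU+S against MPTP-SU all 10 means were higher, by 0.03 to 0.15 on the log2 scale, and 0 were called by edgeR, DESeq2 or limma-voom, with 0 at an unadjusted p below 0.05 (1.65% of all genes) and 0% of all genes called. The 95% intervals still allowed for changes of moderate size, from -0.61 to 0.82 for Cx3cr1 and from -0.89 to 1.00 for C1qa, and were narrowest for Csf1r, at -0.07 to 0.37. In both inhibitor comparisons the spread was estimated over all 20 midbrain libraries, which include MPTP-Veh replicate 4, a library outside the groups compared. The common dispersion was 0.0512 with that library and 0.0222 without it, and the intervals without it are not given here. In MPTP-SU+T against MPTP-SU 8 means were higher and 2 lower, from -0.07 for Trem2 to 0.17 for C1qa. Here also 0 were called by the 3 tools and 0 had an unadjusted p below 0.05, against 0% and 1.7% of all genes with edgeR. Itgam did not overlap, at 14.3, 13.4, 13.4 and 14.6 CPM in MPTP-SU+T and 12.2 to 13.1 CPM in MPTP-SU, where 1.96% of all genes did not overlap.

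Tested across all 5 midbrain groups at once, 1 of the 10 genes had an adjusted p below 0.05, against 7.1% of all genes. This was Aif1 (edgeR adjusted p = 0.0488), whose group means ran from 3.13 CPM in MPTP-SU to 8.05 CPM in MPTP-Veh, and C1qa lay at the threshold (adjusted p = 0.0505). Without MPTP-Veh replicate 4 neither was called, and the share of all genes called in that setting is not given here.

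The spinal cord libraries varied less, with a common dispersion of 0.0071 against 0.0512 in midbrain, or 0.0222 in midbrain without MPTP-Veh replicate 4. In MPTP-Veh against Con all 10 means were higher, by 0.08 to 0.35 on the log2 scale with a median of 0.16, against 0 for all genes. The share of mitochondrially encoded counts was also higher, at 14.3% to 16.4% in MPTP-Veh against 12.4% to 14.2% in Con. Means were higher for all 10 oligodendrocyte genes, 8 of 10 leptomeningeal fibroblast genes and 7 of 8 tested border macrophage genes, Mrc1 by 0.36 among them, and lower for all 5 red blood cell genes and 7 of 8 tested monocyte and neutrophil genes. Of 10 astrocyte genes 5 means were higher, Gfap by 0.29 and Aqp4 by 0.35 among them, and 5 lower. Their part in the values of the 10 genes was not tested. Of the 10 none was called by edgeR, DESeq2 or limma-voom, where 0% of all 16682 genes were called by edgeR, and 3 had an unadjusted p below 0.05 against 12.8% of all genes. All 10 intervals lay below a 1.5-fold rise.

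P2ry12, Csf1r and Tyrobp were these 3 genes. P2ry12 measured 19.8, 25.9, 24.2 and 23.0 CPM in Con and 24.0, 33.5, 30.0 and 31.1 CPM in MPTP-Veh, a difference of 0.35 ± 0.10 (SE, edgeR adjusted p = 0.214). The deviation of the same libraries correlated with GC content at 0.194, -0.282, 0.275 and 0.204 in Con and at 0.243, -0.137, -0.0599 and -0.143 in MPTP-Veh. The part of GC content in this P2ry12 difference was not tested. Csf1r measured 41.5, 49.8, 55.4 and 43.6 CPM in Con and 57.4, 54.8, 57.6 and 49.8 CPM in MPTP-Veh, a difference of 0.21 ± 0.08 (adjusted p = 0.281). Tyrobp measured 4.52, 4.68, 4.69 and 4.03 CPM in Con and 5.48, 4.41, 5.36 and 6.70 CPM in MPTP-Veh, a difference of 0.29 ± 0.13 (adjusted p = 0.331). Each of the 3 overlapped between the groups in at least 1 library, and no listed gene was without overlap, against 4.73% of all genes.

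SUEHP made little difference to the 10 genes in spinal cord. In MPTP-SU against MPTP-Veh 0 were called by the 3 tools and 0% of all genes by edgeR, and Tyrobp alone had an unadjusted p below 0.05, against 3.81% of all genes. It measured 4.55, 4.26, 4.25 and 4.22 CPM in MPTP-SU, below 3 of the 4 MPTP-Veh libraries, a difference of -0.34 ± 0.13 (edgeR adjusted p = 0.999). C1qa, Aif1 and Cx3cr1, the genes called in midbrain, stood at 0.02, 0.14 and 0.05, with intervals of -0.25 to 0.28, -0.19 to 0.47 and -0.09 to 0.20.

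The 2 inhibitors gave single shifts in spinal cord that did not pass the adjusted test. In MPTP-SU+S against MPTP-SU 0 were called by the 3 tools and 0% of all genes by edgeR, and 2 had an unadjusted p below 0.05 against 5.49% of all genes. Aif1 measured 4.12, 3.76, 4.55 and 4.97 CPM in MPTP-SU and 3.52, 2.38, 3.80 and 3.56 CPM in MPTP-SU+S, a difference of -0.39 ± 0.16 (edgeR adjusted p = 0.899). Trem2 measured 1.87, 3.32, 2.73 and 4.53 CPM in MPTP-SU and 1.76, 2.70, 2.32 and 1.84 CPM in MPTP-SU+S, a difference of -0.53 ± 0.21 (adjusted p = 0.899). Both overlapped between the groups, and Trem2 varied as much within MPTP-SU as between the groups.

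P2ry12 was the gene of the 10 with the clearest differences among spinal cord groups. MPTP-SU libraries measured 28.3, 24.2, 29.1 and 28.9 CPM, MPTP-SU+S libraries 26.8, 29.1, 32.6 and 32.6 CPM, and MPTP-SU+T libraries 19.7, 24.2, 19.7 and 23.3 CPM. The MPTP-SU+T libraries all lay below MPTP-SU, the nearest pair being equal after rounding, where 8.04% of all genes did not overlap, and covered nearly the same range as Con. The difference between MPTP-SU+T and MPTP-SU was -0.34 ± 0.10 (edgeR adjusted p = 0.209). In that comparison 0 of the 10 were called by the 3 tools, 0.024% of all genes by edgeR, and 1 had an unadjusted p below 0.05 against 12.1% of all genes. All 13 mitochondrially encoded genes had lower means in MPTP-SU+T than in MPTP-SU, with a median of -0.33. The correlation of a library's deviation with GC content ran from 0.0779 to 0.322 in MPTP-SU+T and from -0.153 to 0.0706 in MPTP-SU, and P2ry12 had the lowest GC of the 10. The part of both in the P2ry12 difference was not tested, and its value with the trend in GC content and length removed is not given here. Across all 5 groups the adjusted p of P2ry12 was 0.0592 with edgeR, so 0 of 10 passed where 0.15% of all genes did. Of the 10 genes 2 had an unadjusted p below 0.05, for which the share of all genes is not given here. P2ry12 passed with DESeq2 and with limma-voom, whose shares of all genes are likewise not given.

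**Figure D4:**
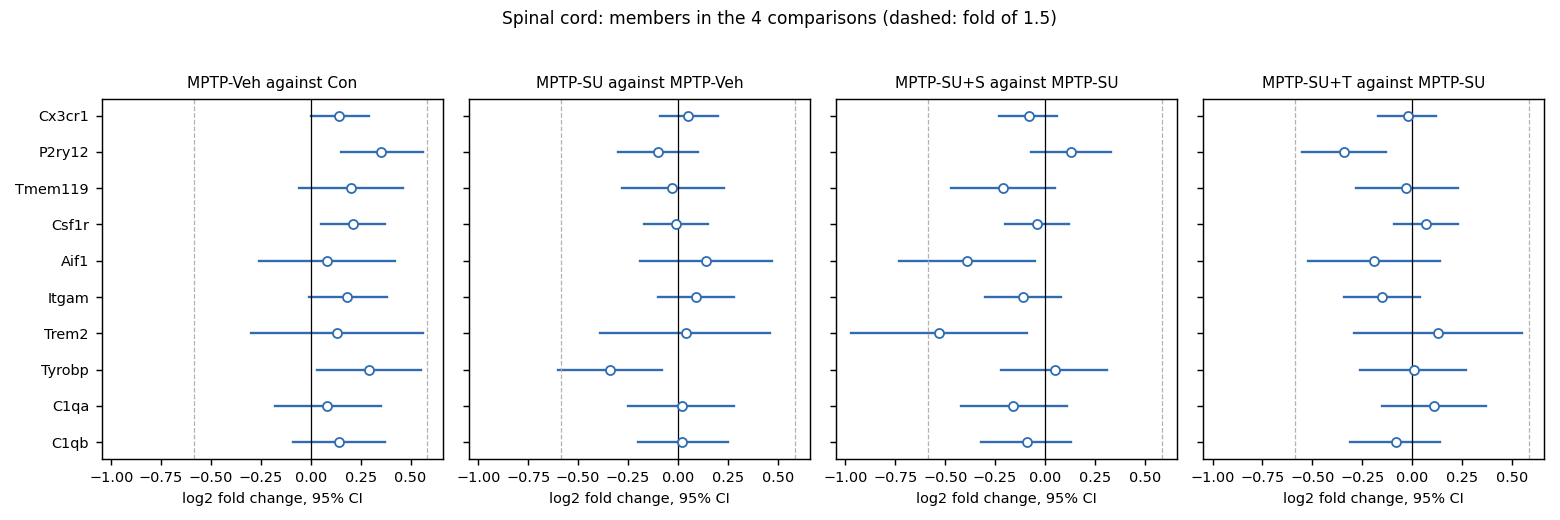
log2 fold change with its 95% interval (horizontal axis) of the 10 microglial genes in the 4 spinal cord comparisons, with dashed lines at a fold of 1.5 in either direction. All 10 lie to the right of 0 in MPTP-Veh against Con, and P2ry12 stands at 0.35 there and at -0.34 in MPTP-SU+T against MPTP-SU.

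The partner, transcription factor, other homeostatic, disease-associated, inflammatory and interferon lists had 0 genes called with edgeR in each of the 4 spinal cord comparisons, where 0%, 0%, 0% and 0.024% of all genes were called. Over the 10 tissue and treatment groups the mean ran from 31.7 to 64.6 CPM for Cx3cr1, from 18.2 to 33.6 CPM for P2ry12, from 3.13 to 8.05 CPM for Aif1 and from 13 to 41.3 CPM for C1qa, with midbrain MPTP-Veh the highest group for Cx3cr1, Aif1 and C1qa and the lowest for P2ry12. Without its replicate 4 that group had means of 35.7, 4.82, 18.9 and 23.4 CPM for these genes in turn, and it was then neither the highest group for Cx3cr1 nor the lowest for P2ry12. With the groups ordered by mean, neighbours in the order did not differ beyond their spread, except for 1 of 9 neighbouring pairs each for Itgam and C1qa.

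Between untreated tissues the 10 genes were close. In Con spinal cord against Con midbrain 9 means were lower and 1, Itgam, higher, with a median of -0.19 and no value beyond -0.39 ± 0.21 for Tmem119 (edgeR adjusted p = 0.163). None was called and 0 had an unadjusted p below 0.05, by DESeq2 and limma-voom also none called, whereas 16.4% of all 17426 genes were called and 39.1% had such a p. The joint fit estimated the spread over all 40 libraries, which include midbrain MPTP-Veh replicate 4, a library outside the groups compared. These tests without that library are not given here. P2ry12 at -0.33, Tmem119, Trem2 at -0.34 and C1qb at -0.33 did not overlap between the tissues, 4 of 10 where 37.3% of all genes did not overlap.

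Of the 19 tested partners 8 were called in this comparison, against 16.4% of all genes. Cx3cl1 and Cd200, which neurons present to microglia, were lower in spinal cord, where they fell by 0.74 and by 0.73 on the log2 scale. Sirpa, the receptor for the inhibitory signal Cd47, fell by 0.64, and Il34, a ligand of Csf1r, fell by 0.69 (edgeR adjusted p = 0.00517). Complement C2 fell by 1.42, while C3 was higher by 3.94 (adjusted p = 2.59e-10), C4b by 0.85 and C1s1 by 0.86. Blood genes also differed between the Con tissues, with 5 of 5 red blood cell genes and 6 of 8 tested monocyte and neutrophil genes called higher in spinal cord, and their part in the complement values was not tested.

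The effect of SUEHP differed between tissues in the joint edgeR fit for the same 3 genes as in midbrain. The spinal cord effect minus the midbrain effect of MPTP-SU against MPTP-Veh was 1.62 ± 0.49 for C1qa (SE, edgeR adjusted p = 0.0236), 1.48 ± 0.40 for Aif1 (adjusted p = 0.0135) and 1.05 ± 0.36 for Cx3cr1 (adjusted p = 0.0404). These 3 of 10 compare with 12.1% of all genes called and 4 of 10 with an unadjusted p below 0.05 with 34.6%, and 0 were called without midbrain MPTP-Veh replicate 4. With replicate number as a block Aif1 alone was called, limma-voom called 1, and a fit of only the compared groups called 0, settings for which the share of all genes is not given here. For MPTP-Veh against Con 0 of the 10 were called with edgeR where 2.45% of all genes were, and 4 had an unadjusted p below 0.05 against 27.7% of all genes. DESeq2 called 2 and limma-voom 1, and the shares of all genes called by these tools are not given here. The largest edgeR value in this contrast was -1.38 ± 0.49 for C1qa (adjusted p = 0.0784), which was -0.27 (adjusted p = 0.645) without midbrain MPTP-Veh replicate 4. Without that library 1 of the 10 was called, P2ry12 at 0.66 ± 0.17 (adjusted p = 0.0431), where 97 genes were called in all. For the inhibitor groups 0 were called by the 3 tools and 0% of all genes by edgeR, and 0 had an unadjusted p below 0.05 against 2.18% (CB1 antagonist) and 2.46% (PPARγ inhibitor) of all genes. The spread in these inhibitor tests also included midbrain MPTP-Veh replicate 4, which is outside the groups compared.

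The balance between the classes was summarised as the mean log2 CPM of the 6 activation-linked genes minus that of the 4 homeostatic genes. In midbrain Con had -1.61 ± 0.06 (SD, n = 4) and MPTP-Veh had -1.14 ± 0.54, whereas the SUEHP groups without and with the CB1 and PPARγ inhibitors had -1.71 ± 0.18, -1.74 ± 0.14 and -1.73 ± 0.15. The 4 MPTP-Veh libraries ran from -1.52 to -0.33, and of the other 16 midbrain libraries only MPTP-SU replicate 4, at -1.45, lay in that range. Con replicate 4 and MPTP-SU+T replicate 3, both at -1.54, lay just below it. In MPTP-Veh replicate 4 genes of the same class moved in opposite directions, as given above, so the class means average over these moves. The part of GC content in this summary was not tested. In spinal cord the means were -1.57 ± 0.16, -1.64 ± 0.08, -1.64 ± 0.12, -1.78 ± 0.08 and -1.57 ± 0.12 in the same order of groups. MPTP-Veh exceeded Con by 0.47 in midbrain, or by 0.20 without replicate 4, and MPTP-SU was 0.57 below MPTP-Veh, or 0.30 without it.

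**Figure D5:**
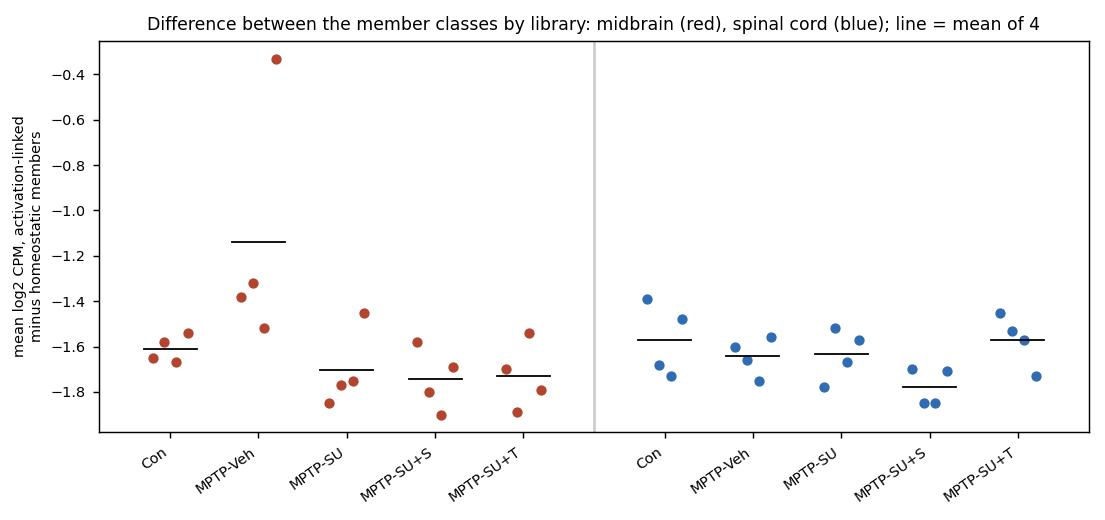
Mean log2 CPM of the 6 activation-linked minus that of the 4 homeostatic genes (vertical axis) in every library, with midbrain in red, spinal cord in blue and a line at the mean of each group of 4. Midbrain MPTP-Veh ranged from -1.52 to -0.33, and the other group means lay between -1.78 and -1.57.

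How the 10 genes varied together depended on the library that stood apart. Over the 20 midbrain libraries C1qa and C1qb correlated at r = 0.951, P2ry12 and Itgam at 0.927, and P2ry12 and C1qa at -0.938. Over the 19 libraries without MPTP-Veh replicate 4 these values were 0.812, 0.555 and -0.593. In spinal cord the closest pair was Cx3cr1 and Csf1r at 0.796. Of the 45 pairs 26 were above 0 in midbrain, 33 without that library and 34 in spinal cord. These are descriptions over libraries that share composition and depth.

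The genes whose log2 CPM followed the mean of the 10 most closely were not microglial ones in midbrain. They were led by Mrps12, a mitochondrial ribosomal protein gene, at r = 0.956 over 20 libraries, followed by Cenpb and Grina, and Mrps12 also led over the 19 libraries without MPTP-Veh replicate 4, at 0.911. In spinal cord Npb at 0.83 and Fntb at 0.786 led over 20 libraries, followed by Msn at 0.689. Kcnk13, the potassium channel THIK-1 of microglia, was also among the first 10 in spinal cord, at 0.664.

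Some counts may be shared with overlapping genes, since the strand setting of the counting was not given. P2ry12 lies within Med12l on the opposite strand, which was at 23.7 CPM in midbrain MPTP-Veh replicate 4 and at 30.5 to 54.0 CPM in the other midbrain libraries. Csf1r overlaps Hmgxb3, and the longest annotated model of Cx3cr1 spans several neighbouring genes. Of these, Wdr48 on the opposite strand was lower in that library, at 34.4 CPM against 49.6 to 57.7 CPM. Xirp1 on the same strand was higher, at 1.98 CPM against 0 to 0.851 CPM. Csrnp1, Gorasp1, Ttc21a and Gm33858 lay within the range of the other midbrain libraries.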

How the data were processed

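The authors deposited estimated counts per gene symbol for 40 libraries. Per the study's methods and the submitters' processing notes, poly(A)-selected CORALL libraries were read as 100-base pairs, trimmed with fastp, aligned with STAR and quantified with Salmon on GRCm39, with versions, strand setting and use of molecular identifiers not given in the sources used here. The table held whole numbers and was used as deposited. Each tissue was fitted with edgeR 4.0.16 (R 4.3.3) over its 20 libraries and 5 groups (filterByExpr, TMM scaling, quasi-likelihood test, Benjamini-Hochberg adjustment), leaving 16629 genes in midbrain and 16682 in spinal cord, and a joint fit of 40 libraries (17426 genes) compared tissues, treating the tissues as independent. Intervals are 95%. Depth limits precision most for genes near 3 CPM. Lengths and GC came from GENCODE for GRCm38 and promoters from RefSeq. All 10 listed genes were named, other genes only from fixed lists when called or when they bear on a result. The members and lists were chosen with earlier results of these data known. Alternatives were other scaling, filters, tools (DESeq2 1.42.0, limma-voom 3.58.1), a replicate block, the compared groups only, leaving out each library, and, chosen after seeing the data, removal of the GC and length trend. Some list genes are not reported here.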

Additional observations from a re-analysis of the deposited data

Results flagged for a closer look

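In groups of 4 libraries, a gene's highest or lowest library was singled out when its gap to the nearest of the others exceeded the 95% critical share of the group's range by Dixon's criterion. This happened in 11 of the 100 groups formed by 10 genes, 2 tissues and 5 treatments, where chance gives about 5, and 5 of the 11 were midbrain MPTP-Veh replicate 4. In that library Cx3cr1 was at 152 CPM (others 30.8 to 38.6), C1qa at 109 CPM (17.2 to 21.4), Tmem119 at 12.3 CPM (7.31 to 7.53), Itgam at 5.18 CPM (11.1 to 11.2) and P2ry12 at 2.73 CPM (20.2 to 25.3).

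The other 6 were in spinal cord and lay closer to their groups. Cx3cr1 was at 38.2 CPM in MPTP-SU+T replicate 4 (others 35.1 to 35.4), P2ry12 at 24.2 CPM in MPTP-SU replicate 2 (28.3 to 29.1) and C1qa at 14.6 CPM in MPTP-SU+T replicate 2 (16.0 to 16.1). Aif1 was at 3.41 CPM in MPTP-Veh replicate 3 (others 4.10 to 4.14) and at 2.38 CPM in MPTP-SU+S replicate 2 (3.52 to 3.80), and Tyrobp was at 4.55 CPM in MPTP-SU replicate 1 (4.22 to 4.26).

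For 3 genes the effects of MPTP-SU against MPTP-Veh differed between the tissues in the joint edgeR fit, all more negative in midbrain. The spinal cord effect minus the midbrain effect was 1.62 for C1qa (adjusted p = 0.0236), 1.48 for Aif1 (adjusted p = 0.0135) and 1.05 for Cx3cr1 (adjusted p = 0.0404), and 0 of the listed genes were called without midbrain MPTP-Veh replicate 4. With replicate number as a block Aif1 alone was called, and with only the compared groups 0 were, again without the share of all genes.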

How the results depend on the processing

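Across 2400 alternative values of the members' log2 fold changes, 2335 stayed on the same side of the threshold, 42 lost a call, 23 gained one and 0 called values changed sign. Only 3 fold changes in midbrain and 3 differences between the tissues were called as reported, so most of the 2335 were values that remained uncalled. The reported calls were all lost without midbrain MPTP-Veh replicate 4. Of the 10 genes, MPTP-SU against MPTP-Veh in midbrain called 1 with limma-voom (C1qa) and 0 with only the compared groups, against 3 as reported and 0 to 5 when 1 library was left out. MPTP-Veh against Con in midbrain called 0 to 2 when 1 library was left out (Cx3cr1 and C1qa without MPTP-Veh replicate 3). Over all midbrain groups 2 were called with RLE scaling, DESeq2, no filter or a filter of 1 CPM in 4 libraries, 3 with limma-voom, 0 with the replicate block or with the GC and length trend removed, and 0 to 3 when 1 library was left out. Over all spinal cord groups 1, P2ry12, was called with DESeq2, limma-voom, no filter or the replicate block, and 0 to 1 when 1 library was left out. For the tissue difference of MPTP-Veh against Con 2 were called with DESeq2, 1 with limma-voom and 1 with the trend removed, and 0 to 5 when 1 library was left out. For that of MPTP-SU against MPTP-Veh 1 was called with limma-voom, 1 with the replicate block (Aif1) and 0 with only the compared groups, and 0 to 5 when 1 library was left out. The count of all genes called in MPTP-SU against MPTP-Veh in midbrain, 2237, ranged from 572 to 3543 when 1 library was left out and from 0 to 3349 under the other settings, and that in MPTP-Veh against Con, 3, from 0 to 1093 and from 0 to 432. The cause of these changes was not tested. The counts of the 10 genes in this section are given without the share of all genes called under each setting.

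Replicate numbers did not meet the criterion for pairing, a correlation of deviations above 0.1 in every pair. Same-numbered libraries of different groups had a mean correlation of deviations of 0.0477 in midbrain (-0.168 to 0.378) and 0.00587 in spinal cord (-0.171 to 0.229). Between the tissues 12 of 20 midbrain libraries matched best with the spinal cord library of their own number. Only 4 of these 20 same-numbered pairs had a correlation above 0.1, with a mean of 0.046 against -0.0148 for other numbers. The matches are a hint from the data that numbers may tie the tissues, which the joint fit treats as independent. The number of best matches without such a tie is not given here. With the replicate block 2 of the 10 genes were called in MPTP-SU against MPTP-Veh in midbrain, where Cx3cr1 was at -0.85 (edgeR adjusted p = 0.0769).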
